A study of Mus musculus with 20 samples.

Results

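Glutathione transferases and the surrounding antioxidant system were followed in the adipose tissue of mice that lost α4 (Igbp1) in adipocytes. The set held 41 of the 25219 gene rows of the deposited table, taken as a fixed list of gene names that was drawn up with earlier results of these data known. It comprised 22 glutathione transferases (alpha class Gsta1 to Gsta4, mu class Gstm1 to Gstm7, pi class Gstp1 and Gstp2, Gsto1, Gstt1 to Gstt3, Gstz1, Gstk1 and the microsomal Mgst1 to Mgst3), 8 genes commonly linked to the transcription factor NRF2, NRF2 itself (Nfe2l2), 5 peroxidases, 3 superoxide dismutases and the metallothioneins Mt1 and Mt2. All 41 names matched 1 row each.

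The RNA came from whole inguinal white adipose tissue (iWAT) and interscapular brown adipose tissue (BAT) of male mice. Ai-α4KO mice carried floxed Igbp1 and the tamoxifen-inducible Cre recombinase CreERT2 under the Adiponectin promoter, which is active in adipocytes, so other cell types of the tissue kept the gene. Control mice, named WT in the genotype labels, carried the floxed alleles without CreERT2 per the study's methods, and both genotypes received tamoxifen from 2 months of age and were sampled 1 week after recombination. There were 5 libraries in each of the 4 groups, with 24023371 to 50384446 estimated counts per library, and the labels did not say whether 1 mouse gave both tissues or how mice map to libraries, so p-values measure only the spread between these libraries.

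Glutathione transferases join the tripeptide glutathione to reactive or foreign compounds. Mu, pi, alpha, theta, omega and zeta enzymes are mostly cytosolic, the kappa enzyme is mitochondrial and peroxisomal, and the microsomal enzymes sit in membranes. NRF2 is held low by KEAP1 in resting cells, and under oxidants or electrophiles it accumulates and binds antioxidant response elements (ARE) near genes for glutathione synthesis, thioredoxin recycling, quinone reduction and heme breakdown. Adipocytes are known to express Gsta4, which clears lipid aldehydes such as 4-hydroxynonenal, together with large amounts of the secreted peroxidase Gpx3.

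Several transferases are near copies of each other, and this bears on their values. The coding sequences of Gsta1 and Gsta2, both on chromosome 9 (mm10, chr9:78230669-78242683 on the plus strand and chr9:78331020-78347145 on the minus strand), differed at 13 of 666 aligned bases, an identity of 98.0%, and those of Gstp1 and Gstp2 (chr19:4035411-4037912 and chr19:4040288-4042221, both minus strand) at 12 of 630, an identity of 98.1%. The stretches of 120 coding bases with the most differences are shown from the GENCODE M21 transcripts because they hold 5 of the 13 and 6 of the 12 differences that set the copies apart, with the differing bases in capitals. The alpha stretch covers coding bases 373 to 492 of both genes, counted from the A of the start codon.
Gsta1: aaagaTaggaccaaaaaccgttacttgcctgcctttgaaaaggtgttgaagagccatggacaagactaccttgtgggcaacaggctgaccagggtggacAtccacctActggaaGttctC
Gsta2: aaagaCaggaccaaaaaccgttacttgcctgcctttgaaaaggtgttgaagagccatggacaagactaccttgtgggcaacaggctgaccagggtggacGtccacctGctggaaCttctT
The pi stretch covers coding bases 1 to 120.
Gstp1: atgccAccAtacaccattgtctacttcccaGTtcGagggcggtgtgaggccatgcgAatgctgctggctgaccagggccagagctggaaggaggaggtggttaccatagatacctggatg
Gstp2: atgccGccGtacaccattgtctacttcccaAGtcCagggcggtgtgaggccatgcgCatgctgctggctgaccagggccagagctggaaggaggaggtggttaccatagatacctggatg

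Of all 100-base windows of the member transcripts, 81.8% in Gsta1, 35.0% in Gsta2, 52.8% in Gstp1 and 63.5% in Gstp2 occurred letter for letter in a transcript of another gene. For Gsta1 the partners were Gsta2 and the predicted genes Gm3776 and Gm10639. Shares were 13.8% for Gstm3, 7.7% for Gstm1, 2.5% for Gstm6 and 0.6% for Gstm2, and the other mu genes shared none, although mu coding sequences were 70.6 to 89.4% identical. Gstt3 shared 23.9% of its windows with a single predicted transcript (Gm20441), and Gpx4 shared 48.4% with the pseudogene Gpx4-ps2 and 1 other transcript. None of the 8 NRF2-linked transcripts shared a window, nor did Nfe2l2. Fractional deposited counts (0.001 or more from a whole number), as arise when a read is divided between rows, were found in all 20 libraries for Gstm5, Gstp1, Gstp2, Gpx4 and Prdx1, in 19 for Mgst1 and Gstz1, in 16 for Gsta1, Gstm2 and Prdx5, and in none for Gstt3, Gstk1, Gstm7 and Gsto1. Levels of Gsta1, Gsta2, Gstp1, Gstp2, Gstt3 and Gpx4 by shared windows, and of the others with mostly fractional counts, are therefore uncertain as to the split between rows.

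Deletion was seen in every Ai-α4KO library. For iWAT, Igbp1 stood at 57.5 to 76.6 CPM (counts scaled to library size) in Control and 10.1 to 11.1 CPM in Ai-α4KO libraries, and for BAT at 85.4 to 105 and 13.7 to 25.2 CPM. Markers of other cell types moved with genotype as well. The 8 macrophage markers all passed the test as higher in both tissues, their summed level running from 1138 to 1926 CPM in Control iWAT against 7416 to 9976 in Ai-α4KO iWAT, and from 229 to 517 against 4272 to 6986 in BAT. Of 10 adipocyte markers 8 fell in iWAT and 7 in BAT, the sum being 31800 to 43170 CPM in Control iWAT, 12920 to 18142 in Ai-α4KO iWAT, 24235 to 26792 in Control BAT and 13569 to 17063 in Ai-α4KO BAT. Skeletal muscle markers summed to 797 to 8495 CPM in Control BAT and 11682 to 37750 in Ai-α4KO BAT. In iWAT they summed to 6292 CPM in Control library 4 and 4852 CPM in Ai-α4KO library 1, against 4.08 to 161 CPM in the remaining 8 libraries, and B cell markers summed to 415 and 164 CPM in Control iWAT libraries 1 and 4. Neutrophil markers were called higher for 4 of 5 in iWAT (19.2 to 88.4 CPM summed in Control, 145 to 479.7 in Ai-α4KO) and 5 of 5 in BAT (11.8 to 35.1 and 199 to 358). Endothelial markers were called lower for 3 of 4 in each tissue (309 to 412 and 143 to 204 CPM in iWAT, 614 to 901 and 218 to 296 in BAT), and stromal markers higher for 1 of 6 in BAT (1194 to 2101 and 3549.8 to 5092 CPM) and none in iWAT. Brown adipocyte markers were called lower for 5 of 6 in iWAT and 2 of 6 in BAT. No macrophage or adipocyte marker was at 0 throughout a group. The part of these shifts in the values below was not tested, and in whole tissue fewer cells of a type and less RNA per cell cannot be told apart.

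In Control tissue the most abundant member per length was the extracellular glutathione peroxidase Gpx3, at 1975 ± 238 FPKM (a length-scaled level, mean ± SD, n = 5) in iWAT and 2907 ± 507 in BAT. Mgst1, the membrane transferase with peroxidase activity, was the most abundant transferase at 1055 ± 82.3 and 796 ± 90.4 FPKM, next after Gpx3 in iWAT and after Gpx3 and Gpx4 in BAT. The summed FPKM of the 22 transferases was 2803 ± 355 in Control iWAT, 1769.9 ± 216 in Ai-α4KO iWAT, 2063 ± 134 in Control BAT and 1806 ± 179 in Ai-α4KO BAT. The iWAT ranges, 2375 to 3248 and 1495 to 2046, did not overlap, whereas the BAT ranges of 1886 to 2175 and 1647 to 2096 did. Mgst1 alone made up 37.9 ± 3.3% of the sum in Control iWAT and 38.6 ± 3.9% in Control BAT, and the pi class 9.24 ± 1.45% and 11.9 ± 2.5%. In Ai-α4KO tissue the pi share was 17.6 ± 4.5% in iWAT and 19.7 ± 3.2% in BAT. Gstz1 with Gstk1 held 14.1 ± 0.74% of the Control iWAT pool against 8.12 ± 1.58% after deletion, and 12.2 ± 1.6% against 6.83 ± 0.78% of the BAT pool. These shares describe the pool and were not tested.

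**Figure D1:**
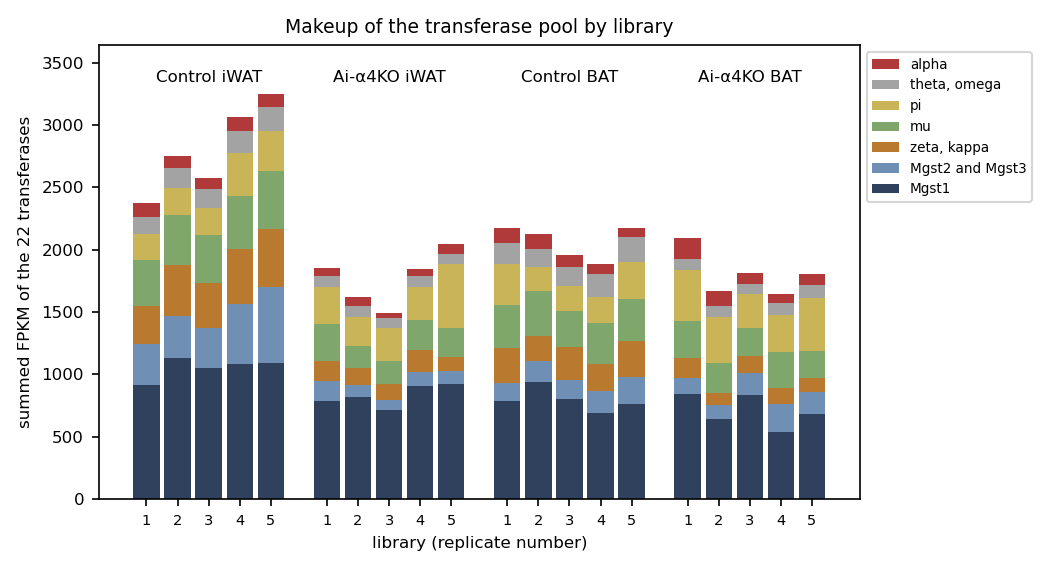
Summed FPKM (y axis) of the 22 transferases in each of the 20 libraries (x axis, replicate number within the group), stacked by class. Mgst1 is the largest block in each library, and the Ai-α4KO iWAT columns, 1495 to 2046 FPKM high, all lie under the Control iWAT columns.

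Genotype was compared with edgeR's quasi-likelihood test on the rounded counts within each tissue, with Benjamini-Hochberg adjustment over all genes tested, and a gene was called at an adjusted p below 0.01 and a change of at least 2-fold. Log2 fold changes are Ai-α4KO over Control, with n = 5 libraries per group. The SE given is the change divided by the square root of the test's F statistic, and the confidence intervals rest on it. In iWAT 40 of the 41 members passed the filter on low counts (all but Gsta2). Of these 9 rose and 15 fell, where 11.3% of all 14604 genes tested rose and 10.7% fell. In BAT 40 members passed (all but Gstm3), of which 11 rose and 10 fell, against 18.2% and 13.3% of 14344 genes. Gsta1 in both tissues and Gsta2 and Slc7a11 in BAT passed that filter only through the Ai-α4KO libraries, where they are high, so they could hardly be tested without differing. Leaving them out, a choice made after seeing the data, 8 of 39 members rose in iWAT and 8 of 37 in BAT. Counting groups that did not overlap, 11 members were higher and 20 lower in iWAT (20.7% and 18.4% of all genes tested) and 13 higher and 16 lower in BAT (23.5% and 24.2%). These higher counts include Gsta1 in both tissues and Gsta2 and Slc7a11 in BAT, whose separation is not counted as support. Without the same members, the median log2 fold change was -1.13 in iWAT over 20 transferases and -0.74 in BAT over 19, and 1.59 in iWAT over 8 NRF2-linked genes and 1.70 in BAT over 7, beside 0.015 and -0.032 over all genes tested. Over every member tested the medians were -1.12 and -0.64 for the transferases and 1.59 and 2.06 for the NRF2-linked genes, the last resting on Slc7a11. With library totals in place of TMM scaling, which moved the all-gene median to 0.13 in iWAT and 0.23 in BAT, 12 members rose and 5 fell in BAT, where 22.7% and 8.82% of all genes did, and 9 rose and 13 fell in iWAT, where 13% and 8.68% did. Upper-quartile scaling gave 6 and 16 in iWAT (10% and 12.4% of all genes) and 11 and 9 in BAT (18.8% and 12.7%).

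**Figure D2:**
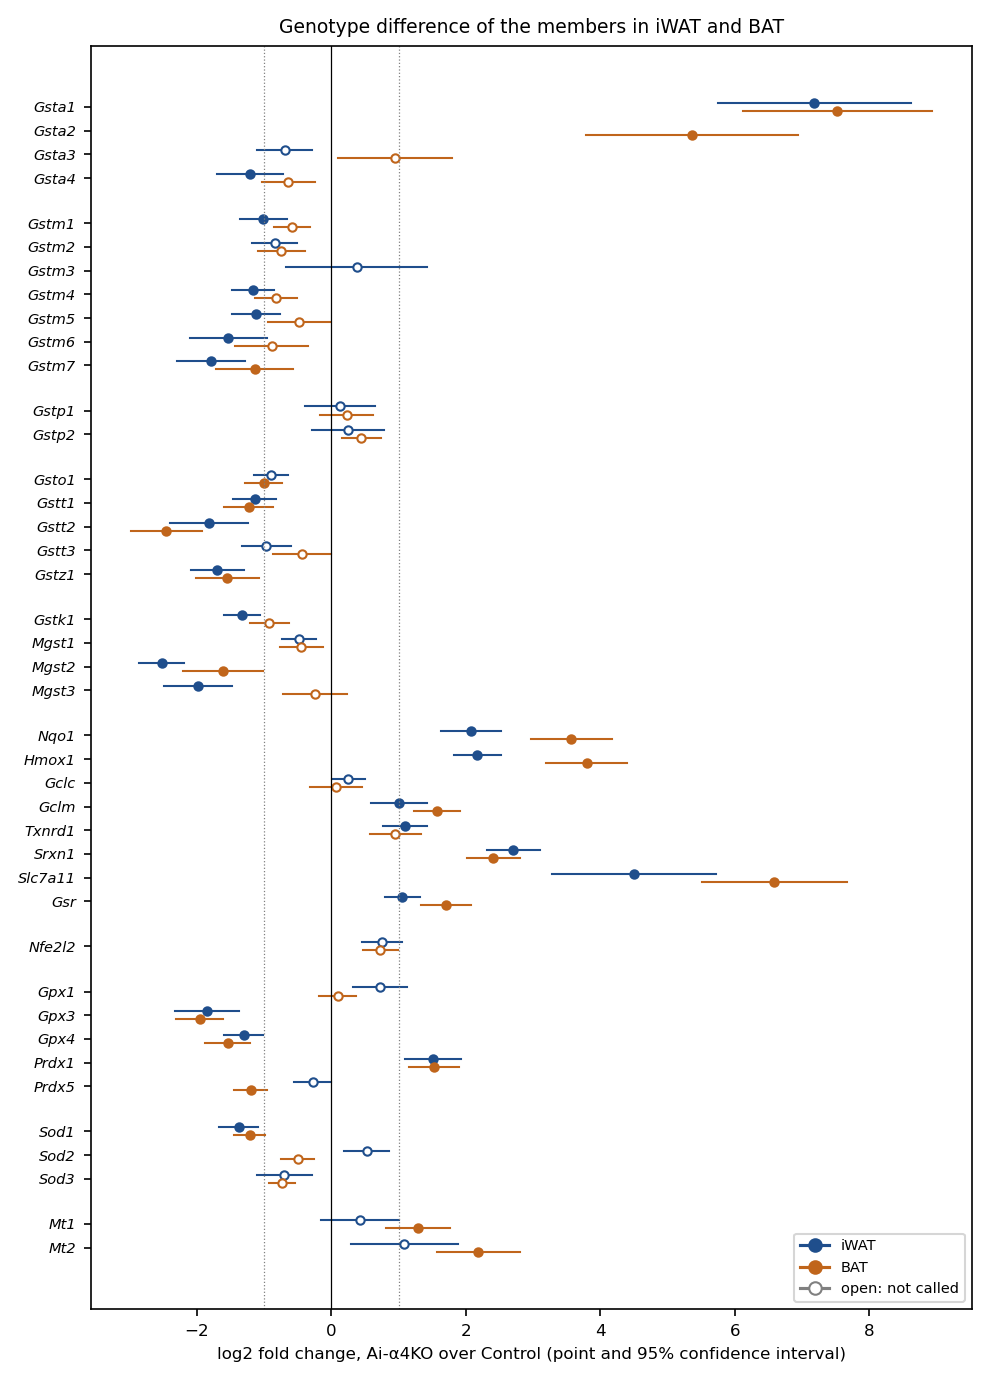
Log2 fold change of Ai-α4KO over Control (x axis) with its 95% confidence interval for each member (y axis, by class) in iWAT (blue) and BAT (orange), from edgeR with 5 libraries per group. Filled points passed an adjusted p of 0.01 and 2-fold (dotted lines), open points did not, and the members not tested (Gsta2 in iWAT, Gstm3 in BAT) are left blank. Of 21 tested transferases 17 lie left of 0 in iWAT and 16 in BAT, Gsta1 and Gsta2 lie far to the right, and the NRF2-linked genes lie to the right.

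Among the NRF2-linked genes, the cystine importer Slc7a11 had the greatest log2 fold change by edgeR in iWAT, but not by limma on log2(FPKM + 1), where it was 2.48 and that of Srxn1 2.72. Its level was 1.95, 2.64, 0.601, 5.90 and 2.55 CPM in Control iWAT libraries 1 to 5 and 40.4, 128, 53.5, 38.3 and 51.5 CPM in Ai-α4KO iWAT. In BAT it was 1.32, 0.352, 0.272, 0.423 and 0.557 CPM in Control and 95.5, 84.1, 41.7, 34.6 and 30.4 CPM in Ai-α4KO. Ai-α4KO libraries stood apart from Control in both tissues, and replicate 2 was the highest in iWAT. The log2 fold change was 4.50 ± 0.55 in iWAT (edgeR adjusted p = 5.4e-05). In BAT, where 3 of 5 Control libraries reached the filter's level of 0.340 CPM, it was 6.58 ± 0.49, a value that describes the low Control level and is not counted as support, and limma on log2(FPKM + 1) gave 2.55.

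Hmox1 (heme oxygenase 1, which opens the heme ring and releases iron, carbon monoxide and biliverdin) was at 78.3, 89.4, 80.6, 58.4 and 95.9 CPM in Control iWAT and 415, 403, 389, 290.1 and 318 CPM in Ai-α4KO iWAT. In BAT it was at 21.03, 23.0, 13.1, 30.2 and 17.5 CPM in Control and 374, 430.2, 261, 199 and 229.8 CPM in Ai-α4KO. The lowest Ai-α4KO library lay far above the highest Control library in both tissues. Hmox1 rose by 2.17 ± 0.16 log2 units in iWAT (edgeR adjusted p = 3.37e-06) and 3.795 ± 0.27 in BAT (edgeR adjusted p = 3.5e-07).

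Nqo1, which reduces quinones to hydroquinones and is a standard readout of NRF2 activity, was at 4.89, 6.03, 5.33, 6.92 and 5.98 CPM in Control iWAT and 20.5, 38.8, 22.6, 19.7 and 22.3 CPM in Ai-α4KO iWAT. The BAT libraries gave 2.41, 6.18, 4.03, 3.32 and 5.46 CPM in Control and 69.0, 63.4, 46.7, 49.9 and 32.2 CPM in Ai-α4KO. Again no library of 1 genotype fell within the other, and replicate 2 stood above the remaining Ai-α4KO iWAT libraries. Nqo1 rose by 2.08 ± 0.20 log2 units in iWAT (edgeR adjusted p = 1.26e-05) and 3.57 ± 0.28 in BAT (edgeR adjusted p = 5.72e-07).

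Srxn1 (sulfiredoxin, which repairs overoxidised peroxiredoxins) was at 38.4, 49.4, 47.8, 46.3 and 50.9 CPM in Control iWAT and 279, 446, 300.1, 225 and 274 CPM in Ai-α4KO iWAT. BAT levels were 65.1, 83.4, 92.7, 61.9 and 72.7 CPM in Control and 515, 500.0, 373, 289 and 367 CPM in Ai-α4KO. Groups did not overlap in either tissue. Srxn1 rose by 2.71 ± 0.18 log2 units in iWAT and 2.41 ± 0.18 in BAT (edgeR adjusted p = 2.37e-06 and 4.81e-07).

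The enzymes of glutathione supply changed less. Gclm, the modifier subunit of glutamate-cysteine ligase, was at 22.4, 29.99, 31.4, 35.5 and 38.2 CPM in Control iWAT and 53.1, 92.7, 60.9, 51.1 and 59.0 CPM in Ai-α4KO iWAT, and its log2 fold change was 1.004 ± 0.19 (edgeR adjusted p = 0.000914). In BAT Gclm ranged over 26.2 to 38.4 CPM in Control against 76.3 to 121 CPM in Ai-α4KO, a rise of 1.57 ± 0.16 log2 units (edgeR adjusted p = 4.43e-06). Gclc, the catalytic subunit of the same enzyme, was at 28.6, 31.5, 29.6, 32.9 and 30.5 CPM in Control iWAT and 31.03, 46.4, 35.3, 32.4 and 38.2 CPM in Ai-α4KO iWAT. The groups overlapped for Gclc, and its log2 fold change was 0.25 ± 0.11 in iWAT (95% confidence interval 0.0033 to 0.50) and 0.071 ± 0.18 in BAT (95% confidence interval -0.31 to 0.46), neither passing the test. Gsr, which reduces oxidised glutathione, rose by 1.05 ± 0.12 log2 units in iWAT and 1.70 ± 0.17 in BAT (edgeR adjusted p = 3.11e-05 and 3.82e-06), with iWAT ranges of 52.1 to 57.5 CPM in Control against 98.3 to 149.9 CPM in Ai-α4KO and BAT ranges of 28.7 to 47.5 CPM in Control against 93.3 to 136 CPM in Ai-α4KO. Txnrd1 (cytosolic thioredoxin reductase) had log2 fold changes of 1.09 ± 0.15 in iWAT, which was called, and 0.95 ± 0.18 in BAT, where the edgeR adjusted p was 0.000524 but the change was under 2-fold, passing it without Ai-α4KO BAT replicate 3, 4 or 5 (1.02 to 1.08).

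The 3 smallest of the called iWAT rises, those of Gclm, Gsr and Txnrd1, rested on being just over 2-fold. Without Ai-α4KO iWAT replicate 2 they were 0.83, 0.94 and 0.94 log2 units and 6 members rose in place of 9, and Gclm was also under 2-fold without Control replicate 1, 2 or 3 (0.84 to 0.99) and Gsr without Control replicate 1 or 3 (0.9901 and 0.9995). Within the Ai-α4KO groups the NRF2-linked genes shared their high libraries. Replicate 2 of Ai-α4KO iWAT was the highest of the 5 for 7 of the 8 genes, and replicates 1 and 2 of Ai-α4KO BAT were the top pair for all 8. Marker sums varied over the same libraries. Ai-α4KO BAT replicates 1 and 2 had the lowest muscle sums (11682 and 12594 CPM, against 20918 to 37750 in replicates 3 to 5) and the lowest brown adipocyte sums (1649 and 1547 CPM, against 2018 to 3589), and macrophage sums of 4965 and 6986 CPM, against 4272 to 5826. Ai-α4KO iWAT replicate 2 had the highest neutrophil sum (479.7 CPM), the lowest stromal sum (4182 CPM) and the second highest macrophage sum (9422 CPM). Its epithelial marker sum was also the highest of the group, at 86.6 CPM. That sum was 43.3 CPM in Ai-α4KO iWAT replicate 1 and as low as 0.609 CPM in replicate 4. Control iWAT replicates 1 and 4 had epithelial sums of 51.7 and 19.2 CPM. The part of these in the shared high libraries was not tested.

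**Figure D3:**
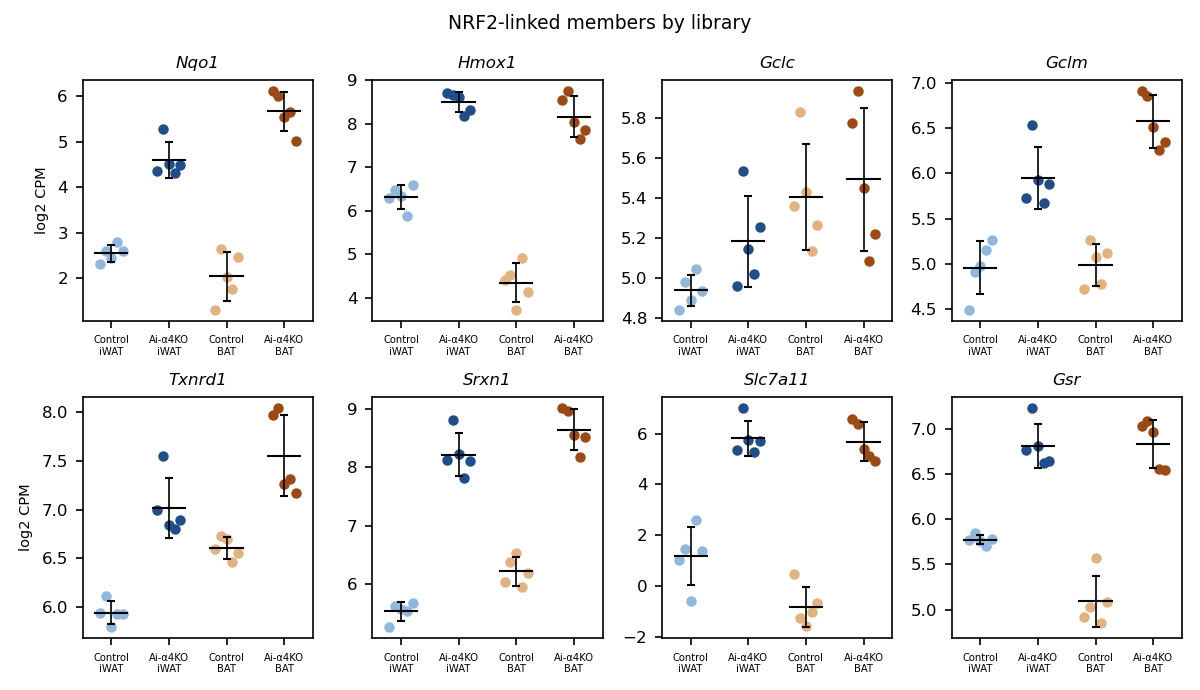
Levels of the 8 NRF2-linked genes (y axis, log2 CPM with a prior count of 2) in the 5 libraries of each of the 4 groups (x axis), one panel per gene, with the mean and SD. Points are ordered by replicate number from left to right. Ai-α4KO points lie above Control points of the same tissue for each gene except Gclc, where they overlap.

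Nfe2l2, the gene of NRF2, was at 87.5, 107, 99.6, 134 and 138 CPM in Control iWAT and 174, 208, 185, 185 and 207 CPM in Ai-α4KO iWAT. Values in BAT were 97.4 to 141 CPM in Control and 193 to 217 CPM in Ai-α4KO. Groups did not overlap in either tissue, but the differences of 0.76 ± 0.14 and 0.73 ± 0.12 log2 units (edgeR adjusted p = 0.000739 and 0.000195) were under 2-fold, the BAT value passing it only by limma on log2(FPKM + 0.1) (1.01). The protein, on which NRF2 is mostly controlled, was not measured.

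Promoter sequences were searched for the ARE core TGACNNNGC on both strands, a pattern that partly overlaps the AP-1 site TGACTCA. RefSeq windows (GRCm38.p6, 250 bases before to 50 after each start) were found for 35 of the 41 members, and 14% of all 27025 genes with a window held the core. It occurred for 11 of the 35 members: 3 of 5 NRF2-linked genes with a window (Gclm, Txnrd1 and Srxn1, not Nqo1 or Slc7a11), 4 of 20 transferases (Gsta3, Gstm5, Gstm7 and Mgst1), Nfe2l2, Prdx1, Sod1 and Mt2. Known NRF2 sites can lie kilobases away, so a window without these letters says nothing of binding. The stretches around 4 of these matches are shown as examples of the letters found, chosen after the values were seen and not as a comparison of genes that rose with genes that fell, with the core in capitals and the gene's strand read 5′ to 3′.
Gclm chr3:122245398-122245456 (+): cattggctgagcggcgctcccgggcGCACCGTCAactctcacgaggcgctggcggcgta
Txnrd1 chr10:82859089-82859147 (+): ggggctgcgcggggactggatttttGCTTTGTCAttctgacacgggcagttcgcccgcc
Prdx1 chr4:116685441-116685499 (+): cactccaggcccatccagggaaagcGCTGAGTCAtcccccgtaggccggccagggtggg
Gstm7 chr3:107931710-107931768 (-): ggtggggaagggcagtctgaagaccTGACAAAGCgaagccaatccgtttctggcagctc
The matches of Gclm, Txnrd1 and Prdx1 read on the strand opposite to the gene, those of Prdx1 and Mt2 overlap an AP-1 site, and Txnrd1 and Gstm7 have further annotated starts whose windows held none.

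Alpha-class transferases went in different directions. Gsta1, an enzyme for electrophilic substrates, was at 0, 0.0311, 0.0376, 0.0289 and 0 CPM in Control iWAT and 1.69, 5.79, 2.07, 2.11 and 3.48 CPM in Ai-α4KO iWAT. For BAT the values were 0.0455, 0.391, 0.0453, 0 and 0.0398 CPM in Control and 34.7, 29.2, 12.9, 9.82 and 16.9 CPM in Ai-α4KO. Control libraries were at or near 0 in both tissues. After rounding, the 5 Control iWAT libraries held 3 counts in all against 644 after deletion, a ratio of 177 scaled for library size (95% counting interval 60.4 to 863), and Control BAT held 13 against 3459, a ratio of 208 (121 to 391). Of those 13 counts 10 lay in Control BAT replicate 2, and without it, a choice made after seeing the data, the ratio was 714 (244 to 3464) on 3 Control counts. No Control library reached the level of the low-count filter in either tissue, and the fitted log2 fold changes, 7.18 and 7.52, depend on the prior count, so the counts above are the description of this gene and the calls are not counted as support.

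Rounded Gsta2 counts were 10 for the Control iWAT libraries together and 56 for Ai-α4KO iWAT, with 5 and 314 in BAT, where it was at 3.795, 1.85, 1.35, 0.772 and 1.72 CPM in the Ai-α4KO libraries. No Control BAT library reached the filter's level for Gsta2 either, so its fitted value of 5.36 log2 units is given without support from its call. The ratios scaled for library size were 4.63 (95% counting interval 2.34 to 10.2) in iWAT and 49.1 (20.8 to 152) in BAT, the latter 97.2 (26.7 to 806) without Control BAT replicate 2, which held 3 of the 5 Control counts. The predicted genes that share windows with Gsta1 were added after these values were known: Gm3776 held 1.6 counts in the Control and 325.8 in the Ai-α4KO libraries of iWAT, and 9.8 and 1723 in those of BAT, and Gm10639 held 5.3 and 12.1, and 1.0 and 95.2. Gsta1 took 62.1% of the counts of these 4 rows in Ai-α4KO iWAT and 61.9% in Ai-α4KO BAT. Added together before the fit, Gsta1 and Gsta2 gave 5.43 ± 0.62 log2 units in iWAT and 7.19 ± 0.66 in BAT, with the same limit.

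Gsta4 and Gsta3 did not share windows with any other gene. Gsta4, the lipid aldehyde enzyme, was at 69.3, 63.3, 73.0, 56.2 and 53.1 CPM in Control iWAT and 24.7, 28.6, 17.8, 20.7 and 45.1 CPM in Ai-α4KO iWAT, and fell with a log2 fold change of -1.21 ± 0.23 (edgeR adjusted p = 0.000926). In BAT its groups overlapped, at 84.9 to 146 and 62.7 to 101 CPM (-0.64 ± 0.18 log2 units, under 2-fold). Gsta3 was at 8.29, 19.2, 8.66, 15.8 and 10.3 CPM in Control BAT and 48.2, 23.9, 27.7, 12.9 and 10.2 CPM in Ai-α4KO BAT. Those groups overlapped, with replicate 1 the highest, and the log2 fold change was 0.94 ± 0.39 in BAT (edgeR adjusted p = 0.0504) and -0.70 ± 0.18 in iWAT (edgeR adjusted p = 0.00748, under 2-fold).

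Of the 7 mu-class genes, which lie together on chromosome 3 and conjugate a broad range of electrophiles, 5 fell in iWAT (Gstm1, Gstm4, Gstm5, Gstm6 and Gstm7) and 1 of 6 tested in BAT (Gstm7). Gstm1 was the most abundant mu gene per length, at 194 ± 10.03 FPKM in Control iWAT. It was at 267, 284, 296, 258 and 297 CPM in Control iWAT and 186, 107, 105, 147 and 151 CPM in Ai-α4KO iWAT, and its change of -1.01 ± 0.16 log2 units (edgeR adjusted p = 0.000279) fell under 2-fold without Control replicate 5 (-0.99) or Ai-α4KO replicate 2 or 3 (-0.93 and -0.92). Gstm7 showed the greatest change of the class, -1.79 ± 0.23 in iWAT and -1.14 ± 0.26 in BAT (edgeR adjusted p = 7.33e-05 and 0.00245), with iWAT ranges of 6.65 to 9.198 CPM in Control against 1.418 to 3.23 CPM in Ai-α4KO and BAT ranges of 11.3 to 20.5 CPM in Control against 3.77 to 9.14 CPM in Ai-α4KO. The BAT call was lost without Ai-α4KO BAT replicate 2 (-0.98) and with the muscle marker score as a covariate (-1.02, edgeR adjusted p = 0.0675), and Gstm6 in BAT (-0.89 ± 0.25, not called) passed without Control BAT replicate 3 (-1.003). Summed over the class, the counts changed by -0.99 ± 0.14 log2 units in iWAT and -0.64 ± 0.12 in BAT, just short of 2-fold in the first. Gstm3 stayed under 3 CPM in each library.

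Neither pi-class gene was called in either tissue. Gstp1, the main pi enzyme, was at 148, 149.7, 173, 249 and 237 CPM in Control iWAT and 197, 157, 179, 173 and 342 CPM in Ai-α4KO iWAT. In BAT it was at 275, 168, 171, 171 and 253 CPM in Control and 285, 251.99, 192, 219 and 301 CPM in Ai-α4KO. Groups overlapped in both tissues. The log2 fold change of Gstp1 was 0.12 ± 0.24 in iWAT (95% confidence interval -0.39 to 0.64) and 0.23 ± 0.18 in BAT (95% confidence interval -0.17 to 0.63), and that of Gstp2 was 0.24 ± 0.24 (-0.29 to 0.78) and 0.44 ± 0.13 (0.15 to 0.73). In iWAT the sign turned for Gstp1 without Control replicate 1 or Ai-α4KO replicate 5 (-0.014 and -0.12) and for Gstp2 without the latter (-0.0079). The sum of both copies changed by 0.14 ± 0.23 and 0.26 ± 0.17 log2 units.

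Of the 5 theta, zeta and omega genes 3 fell in iWAT and 4 in BAT. Gstt2, of the theta class, was at 29.1, 28.2, 33.8, 55.3 and 64.7 CPM in Control iWAT and 9.94, 15.9, 8.77, 12.7 and 12.5 CPM in Ai-α4KO iWAT. The BAT libraries gave 51.2, 28.7, 46.5, 45.2 and 83.0 CPM in Control and 10.1, 9.12, 8.09, 11.1 and 9.31 CPM in Ai-α4KO. Neither tissue showed overlap, and the log2 fold changes were -1.82 ± 0.26 and -2.46 ± 0.24 (edgeR adjusted p = 0.000167 and 3.94e-06). Gstt1 also fell in both tissues (-1.14 ± 0.15 and -1.23 ± 0.16), while Gstt3 was under 2-fold in both (-0.97 ± 0.17 and -0.44 ± 0.20). By limma on log2 FPKM with 1 and 0.1 added, Gstt1 was under 2-fold in iWAT (-0.97 and -0.998) and BAT (-0.91 and -0.97), and with the muscle score it was so in BAT (-0.99). Gstz1, maleylacetoacetate isomerase of tyrosine breakdown, was at 522, 730.3, 722, 806 and 904 CPM in Control iWAT and 255, 213, 212, 294 and 169 CPM in Ai-α4KO iWAT. It ranged over 346 to 514 CPM in Control against 111 to 220.0 CPM in Ai-α4KO in BAT, and the changes were -1.69 ± 0.18 and -1.55 ± 0.21 log2 units (edgeR adjusted p = 2.14e-05 and 5.72e-05). Gsto1, which reduces dehydroascorbate, had -0.90 ± 0.12 in iWAT, not called, and -1.005 ± 0.13 in BAT, called at just 2-fold. The BAT value was under 2-fold (-0.97 to -0.95) without Control BAT replicate 4 or without Ai-α4KO BAT replicate 1, 2 or 3, and in 7 of 12 other settings, among them DESeq2 (-0.97), a minimum of 10 counts in every library (-0.95) and limma (-0.74 and -0.75). In iWAT Gsto1 passed 2-fold without Control replicate 1 (-1.03), and Gstt3 did so without Control replicate 1, 2 or 3 or Ai-α4KO replicate 2 or 4 (-1.10 to -1.001).

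Of the kappa and microsomal genes, Gstk1, Mgst2 and Mgst3 fell in iWAT and Mgst2 in BAT. Mgst2, which can make leukotriene C4, was at 16.4, 22.5, 21.7, 25.8 and 22.8 CPM in Control iWAT and 4.03, 4.01, 3.12, 4.26 and 3.61 CPM in Ai-α4KO iWAT. BAT levels were 6.01, 11.2, 6.53, 7.02 and 5.65 CPM in Control and 3.795, 2.67, 2.41, 1.48 and 1.79 CPM in Ai-α4KO. Both pairs of groups were apart, and the log2 fold changes were -2.52 ± 0.15 and -1.61 ± 0.28 (edgeR adjusted p = 1.86e-06 and 0.000304), in iWAT the greatest fall of any member. Mgst1, the most abundant transferase, ranged over 917 to 1233 CPM in Control against 696 to 885 CPM in Ai-α4KO in iWAT without overlap, a change of -0.48 ± 0.11 log2 units that was under 2-fold, and its BAT value was -0.44 ± 0.15. Gstk1 changed by -1.33 ± 0.12 in iWAT and -0.92 ± 0.13 in BAT, the latter under 2-fold.

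**Figure D4:**
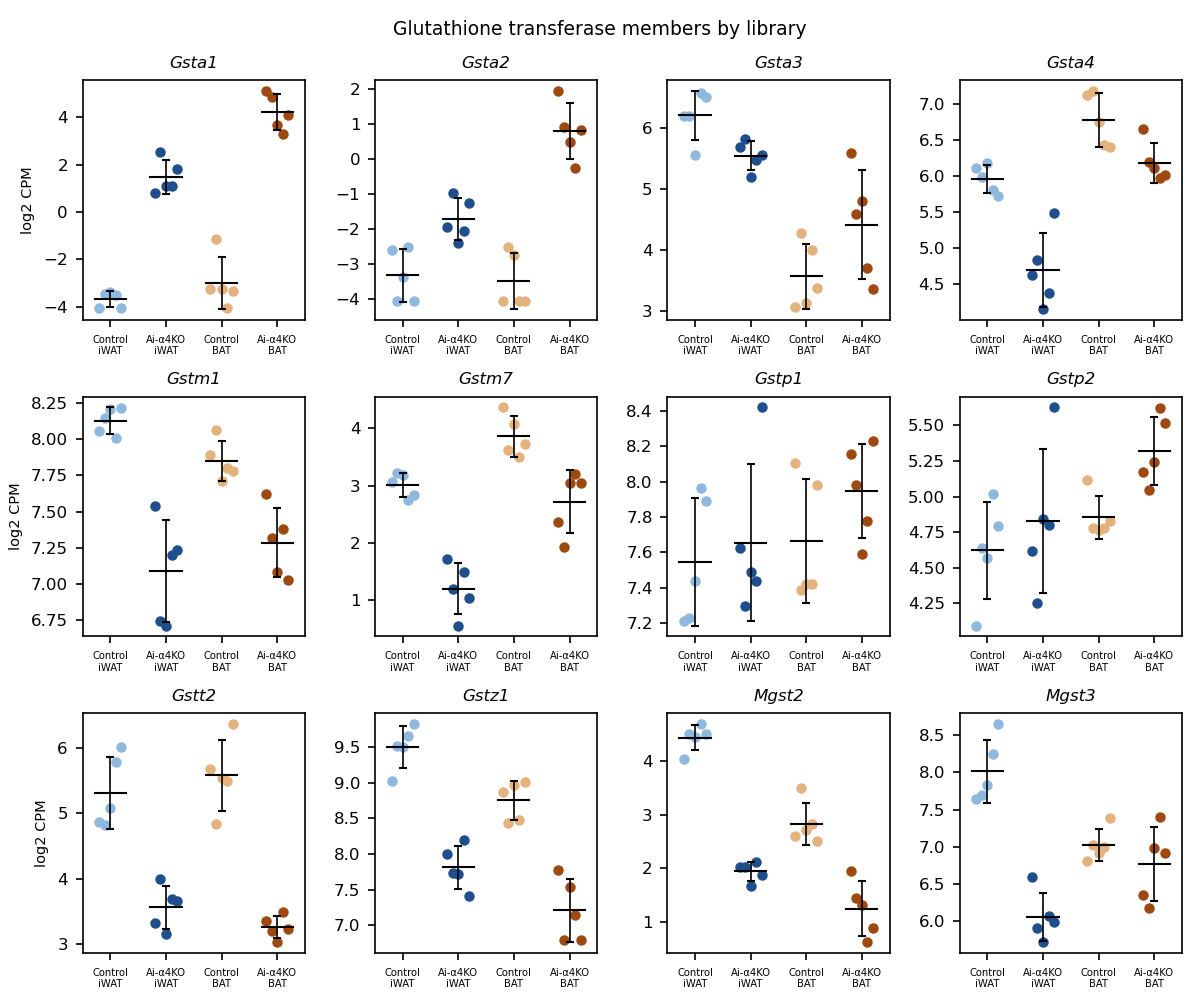
Levels of 12 transferases (y axis, log2 CPM with a prior count of 2) in the 5 libraries of each group (x axis), with mean and SD. Gsta1 and Gsta2 are higher in Ai-α4KO than in Control libraries of both tissues. In iWAT, Gsta2 lies near the floor (0 to 0.116 CPM in Control, 0.131 to 0.456 CPM in Ai-α4KO). Gstp1 and Gstp2 overlap between genotypes, and Gstt2, Gstz1 and Mgst2 are lower in Ai-α4KO libraries of both tissues.

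The peroxidases were split. Prdx1, a cytosolic thioredoxin peroxidase and often counted among NRF2 targets, was at 609, 863, 885, 892 and 750.5 CPM in Control iWAT and 1869, 3259, 2406, 1699 and 2217 CPM in Ai-α4KO iWAT. Values in BAT were 961, 1268, 949, 833 and 818 CPM in Control and 3415, 3171, 3155, 2239.8 and 2263 CPM in Ai-α4KO. It was the most abundant member per length in both Ai-α4KO tissues (1581 ± 411 and 1843 ± 426 FPKM), and rose by 1.51 ± 0.19 and 1.53 ± 0.17 log2 units (edgeR adjusted p = 5.73e-05 and 1.11e-05). Gpx3 was at 2992, 3179, 4448, 2825 and 3371 CPM in Control iWAT and 1433, 700.2, 830.4, 724 and 993 CPM in Ai-α4KO iWAT. For BAT the values were 5379, 4917, 5063, 6859 and 6089.8 CPM in Control and 1852, 1517, 1588, 1305 and 1218 CPM in Ai-α4KO. No Ai-α4KO library reached the lowest Control library, and Gpx3 fell with log2 fold changes of -1.85 ± 0.22 and -1.96 ± 0.16 (edgeR adjusted p = 4.02e-05 and 9.23e-07).

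Gpx4, the phospholipid hydroperoxide peroxidase that guards against ferroptosis, ranged over 701 to 967 CPM in Control against 275 to 393 CPM in Ai-α4KO in iWAT and 1465 to 1981 CPM in Control against 502 to 763 CPM in Ai-α4KO in BAT. Its log2 fold changes were -1.30 ± 0.13 and -1.54 ± 0.15 (edgeR adjusted p = 1.68e-05 and 4.23e-06), with the shared windows named above. Gpx1, the ubiquitous cytosolic form, was not called, with 0.72 ± 0.18 in iWAT and 0.094 ± 0.13 in BAT. Prdx5 was at 573, 481, 490.3, 531 and 485 CPM in Control BAT and 214, 208, 226, 233 and 261 CPM in Ai-α4KO BAT. It fell there with a log2 fold change of -1.20 ± 0.11 (edgeR adjusted p = 2.35e-06) and changed by -0.28 ± 0.13 in iWAT, where groups overlapped. The BAT value was under 2-fold with library totals (-0.94) and by both limma fits (-0.93).

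Among the superoxide dismutases, cytosolic Sod1 ranged over 470.5 to 638 CPM in Control against 177 to 253 CPM in Ai-α4KO in iWAT and 529 to 628 CPM in Control against 216 to 266 CPM in Ai-α4KO in BAT, and fell with log2 fold changes of -1.38 ± 0.13 and -1.21 ± 0.11 (edgeR adjusted p = 1.14e-05 and 1.55e-06). The BAT value of Sod1 was under 2-fold (-0.95) with library totals and by both limma fits. Mitochondrial Sod2 was at 239.6, 288, 347, 238 and 231 CPM in Control iWAT and 421, 488, 361, 342 and 325 CPM in Ai-α4KO iWAT. In BAT it was at 906, 932, 811, 766 and 708 CPM in Control and 577, 573, 643, 595 and 592 CPM in Ai-α4KO. Sod2 values were thus mostly higher in Ai-α4KO iWAT, with overlap, and lower in Ai-α4KO BAT, without overlap, and neither reached 2-fold (0.52 ± 0.15 and -0.50 ± 0.11 log2 units). Extracellular Sod3 was lower in both without reaching 2-fold (-0.70 ± 0.19 and -0.73 ± 0.091).

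Metallothioneins bind zinc and copper and also scavenge oxidants. Mt2 was at 71.4, 181, 103, 99.0 and 104 CPM in Control iWAT and 229, 471, 223, 144 and 121 CPM in Ai-α4KO iWAT. The BAT libraries gave 126, 116, 113, 79.5 and 103 CPM in Control and 588, 815, 525, 339.8 and 246 CPM in Ai-α4KO. The iWAT groups overlapped and the BAT groups did not. The log2 fold change of Mt2 was 1.09 ± 0.36 in iWAT (edgeR adjusted p = 0.0253, not called) and 2.19 ± 0.28 in BAT (edgeR adjusted p = 3.45e-05), and that of Mt1 was 0.43 ± 0.26 and 1.29 ± 0.22 (edgeR adjusted p = 0.186 and 0.0003). The promoters of both hold metal response cores (TGCACNC or TGCGCNC on either strand), 3 matches for Mt1 and 4 for Mt2, where 28.2% of all genes with a window held at least 1.

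**Figure D5:**
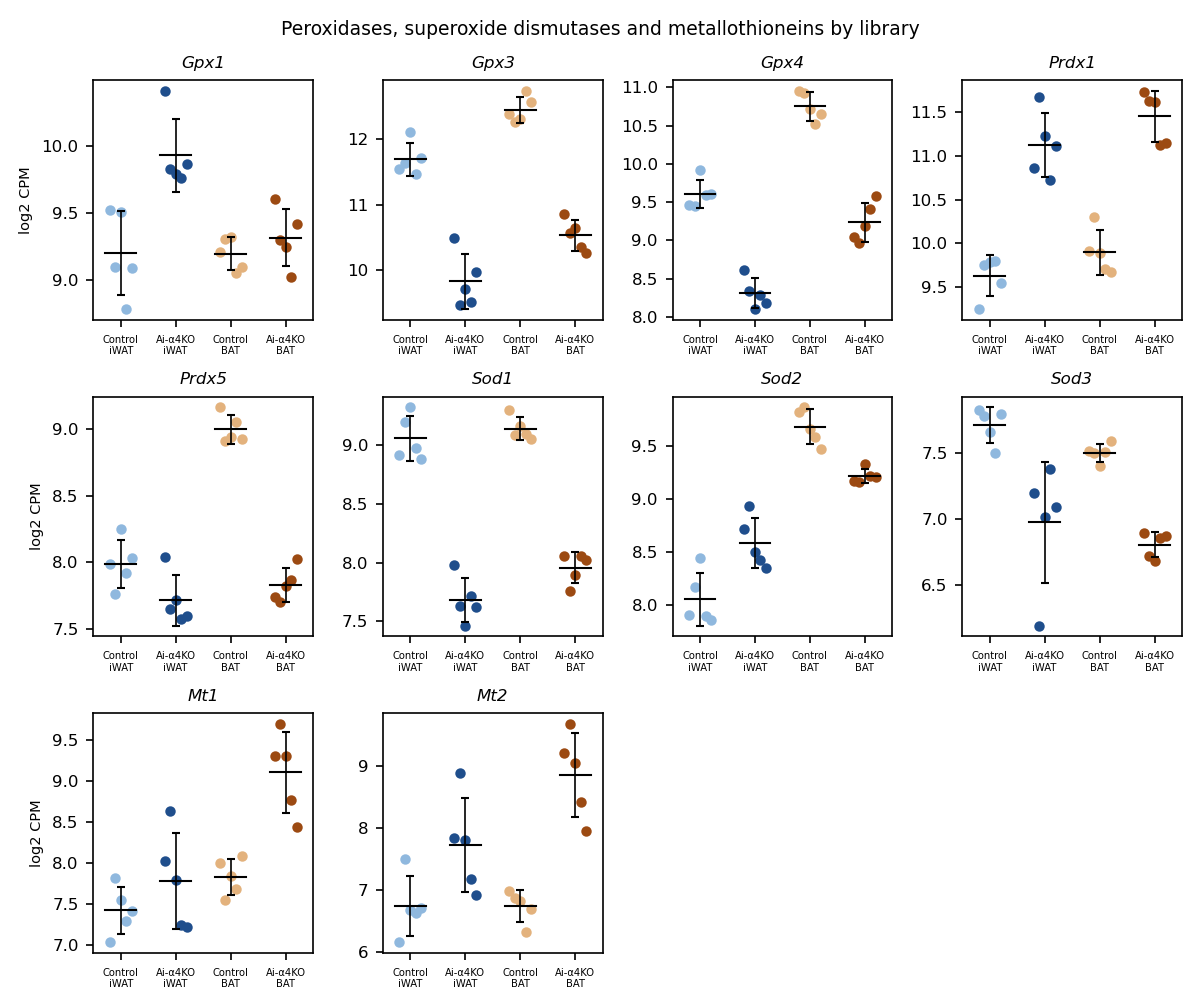
Levels of the peroxidases, superoxide dismutases and metallothioneins (y axis, log2 CPM with a prior count of 2) in the 5 libraries of each group (x axis), with mean and SD. Prdx1 is higher and Gpx3, Gpx4 and Sod1 are lower in Ai-α4KO libraries of both tissues, and Mt1 and Mt2 are apart between genotypes only in BAT.

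Control BAT and Control iWAT were compared to show where the members differ before deletion. Of 38 members tested 2 were higher in BAT and 6 lower, where 7.22% and 14.7% of 14260 genes were called. Groups did not overlap for 11 members higher in BAT and 9 lower, against 16.6% and 20.6% of all genes. Sod2 (1.58 ± 0.14 log2 units, edgeR adjusted p = 1.14e-05) and Gpx4 (1.11 ± 0.13, edgeR adjusted p = 4.89e-05) were higher in BAT. Gsta3 (-2.65 ± 0.26), Slc7a11 (-2.25 ± 0.58), Hmox1 (-1.98 ± 0.21), Mgst2 (-1.62 ± 0.19), Gstt3 (-1.29 ± 0.21) and Mgst3 (-1.06 ± 0.20) were lower. With 1 library left out at a time, 4 to 6 members were called lower. Slc7a11 passed the low-count filter here only through Control iWAT, and without it 5 of 37 members were lower. Markers of other cell types differed between these tissues as well: all 8 macrophage, 6 stromal and 5 B cell markers and 2 of 5 neutrophil and 3 of 10 adipocyte markers were called lower in Control BAT, and 3 of 4 endothelial and all 6 brown adipocyte markers higher. Summed levels in Control iWAT and Control BAT were 3185 to 7654 and 1194 to 2101 CPM for stromal, 5.07 to 415 and 1.25 to 4.55 CPM for B cell and 309 to 412 and 614 to 901 CPM for endothelial markers, and the part of these in the 8 called members was not tested. Brown adipocyte markers summed to 8300 to 12696 CPM in Control BAT and 134 to 994 CPM in Control iWAT.

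The dependence of the genotype difference on tissue was read from an interaction term fitted over all 20 libraries and is given as the log2 fold change in BAT minus that in iWAT. Of 41 members 5 were called at an adjusted p below 0.01, where 4.86% of 15230 genes were called. Hmox1 (1.66 ± 0.31, edgeR adjusted p = 0.00234) and Nqo1 (1.52 ± 0.35, edgeR adjusted p = 0.00768) rose more in BAT. Prdx5 (-0.89 ± 0.16, edgeR adjusted p = 0.00128) and Sod2 (-0.997 ± 0.19, edgeR adjusted p = 0.00222) had the lower value in BAT, and for Sod2 the tissues had opposite signs. The adjusted p of Nqo1 exceeded 0.01 (0.0108 to 0.0159) in 7 of 20 fits that each left out 1 library, namely those without Control iWAT 2, 4 or 5, Control BAT 1, 3 or 4 or Ai-α4KO BAT 4. Both Hmox1 and the macrophage markers started lower in Control BAT, and 6 of the 8 macrophage markers were also called as rising more in BAT. Their part in the Hmox1 and Nqo1 values was not tested.

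Mgst3, the remaining call, was at 200.4, 208, 227, 303 and 402 CPM in Control iWAT and 96.5, 59.9, 52.6, 67.2 and 63.2 CPM in Ai-α4KO iWAT. BAT levels were 112, 129, 121, 128 and 168 CPM in Control and 81.3, 72.5, 127, 169 and 121 CPM in Ai-α4KO. The iWAT groups were apart and the BAT groups overlapped, with an interaction of 1.78 ± 0.33 log2 units (edgeR adjusted p = 0.002). Its log2 fold change was -1.99 ± 0.23 in iWAT (edgeR adjusted p = 3.73e-05) and -0.24 ± 0.22 in BAT (95% confidence interval -0.71 to 0.23). With the muscle score as a covariate the BAT value was -0.78 (edgeR adjusted p = 0.0387, not called), outside that interval, and over the other settings that kept all libraries it ran from -0.30 to -0.0029. The interactions of Gsta3 (1.67 ± 0.47), Gsr (0.68 ± 0.21) and Slc7a11 (2.12 ± 0.74) did not pass (edgeR adjusted p = 0.023, 0.0323 and 0.0591). Gsr passed without Ai-α4KO iWAT replicate 2 or Control BAT replicate 3 (0.90 and 0.82), and Gsta3 without Ai-α4KO BAT replicate 5 (1.97). By DESeq2 both passed (1.74 and adjusted p = 0.00249 for Gsta3, 0.75 and 0.00762 for Gsr), and Gsta2 (3.22 ± 1.18, edgeR adjusted p = 0.0709) passed by limma on log2 FPKM with 1 and 0.1 added (1.17 and 2.48, limma adjusted p = 0.0065 and 0.00541). Gsta2 was not tested in iWAT and passed the BAT filter only through Ai-α4KO libraries, so these limma passes are not counted as support.

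Beyond the 41 genes, 96 genes of the wider pathway were read from the same fits. Of 91 tested in iWAT 14 rose and 16 fell, and of 90 tested in BAT 20 rose and 14 fell, beside 11.3% and 10.7% of all genes in iWAT and 18.2% and 13.3% in BAT. Among thiol reductases and other peroxidases 1 of 25 rose and 9 fell in iWAT, and 1 rose and 7 fell in BAT. Among other NRF2-linked enzymes and transporters 5 of 24 rose and 3 fell in iWAT, and 6 rose and 3 fell in BAT. Of 11 other transferases and related membrane proteins 4 rose and 2 fell in iWAT, and 4 rose and 3 fell in BAT. For glutathione synthesis and turnover none of 14 rose and 2 fell in iWAT, and 5 of 13 rose and 1 fell in BAT. Of 11 regulators and partners of NRF2 3 rose in iWAT and 2 in BAT, none falling, and of 6 metal handling genes 1 and 2 rose.

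Among the called genes, the greatest rises in iWAT were those of Alox5ap, the partner of 5-lipoxygenase (2.59 ± 0.15 log2 units), the zinc importer Slc39a14 (1.96 ± 0.22) and carbonyl reductase Cbr3 (1.86 ± 0.20). In BAT they were Alox5ap (3.83 ± 0.25) and the prostaglandin D synthase Hpgds (3.60 ± 0.25). This leaves out genes near the floor that passed the low-count filter only through the Ai-α4KO libraries: Gstt4 was at 0.042 to 0.293 CPM in Control iWAT and 0.311 to 1.96 CPM in Ai-α4KO iWAT, Ggt6 at 0 to 0.317 and 0.508 to 1.003 CPM in BAT, and Mt3 at 0.0398 to 0.156 and 0.597 to 1.57 CPM in BAT. Without all genes that passed through only 1 group, 13 of 88 wider genes rose in iWAT and 18 of 86 in BAT. This also leaves out Ggt7 in iWAT and Cbs in BAT, which passed through the Control libraries. Alox5ap and Hpgds are also known from macrophages and mast cells, and the macrophage markers given above rose in the same libraries. The greatest called falls were those of transketolase Tkt (-3.34 ± 0.26 in iWAT and -3.18 ± 0.19 in BAT) and malic enzyme Me1 (-3.10 ± 0.24 and -1.88 ± 0.30), which feed or use NADPH routes of lipid synthesis, and of Gsto2 (-2.11 ± 0.26 and -1.83 ± 0.24), with Cbs (-2.33 ± 0.31) in iWAT and Aifm2 (-2.23 ± 0.15) in BAT. Tkt and Me1 are commonly listed as NRF2 targets, and the part of NRF2 in their values was not tested.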

How the data were processed

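Stranded mRNA libraries of 20 adipose samples were sequenced by the authors as paired reads, and the submitters' processing notes name bcl2fastq 2, STAR 2.5.3a and mm10. The counting tool, annotation release and normalization are not given in the sources used here. The authors deposited 1 table with expected counts per gene and FPKM. Of the counts above 0, 77.3% were whole (tolerance 0.001) and the rest were not, so reads shared by similar genes may have been divided between them. All counts were rounded to whole numbers.

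Counts were tested with edgeR 4.0.16 (R 4.3.3; TMM, filterByExpr, quasi-likelihood F test, Benjamini-Hochberg adjustment over all genes tested) within each tissue, between Control tissues, and as an interaction over all 20 libraries. Calls needed an adjusted p below 0.01 and, except for the interaction, 2-fold, limits the study's text names (an adjusted p of 0.05, which it also names, was an alternative). CPM levels use TMM over all libraries. Alternatives used DESeq2 1.42.0 and limma 3.58.1. All members were named, with the 4 most changed wider pathway genes per direction and tissue. Members and lists were chosen with earlier results of these data known. On simulated data of the iWAT comparison edgeR recovered 185 of 200 changed genes with 2 false calls. Their median absolute log2 fold change was 1.97, and no gene at a low level was among those changed. Recovery of changes near 2-fold was thus not measured. Correlations of same-numbered libraries did not settle whether the numbers pair them. Ratio intervals cover counting error only, and depth was 24023371 to 50384446 counts per library.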

Additional observations from a re-analysis of the deposited data

Results flagged for a closer look

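Within groups of 5, a library stood apart from the others (gap to the nearest library over the group's range above 0.71) in 7 of 164 sets of member values, where chance alone gives about 8.2. These were Control BAT replicate 2 for Gsta1 (0.720), Control BAT replicate 1 for Gstp2 (0.823), Control BAT replicate 4 for Gsto1 (0.964), Ai-α4KO iWAT replicate 2 for Nqo1 (0.793), Txnrd1 (0.736) and Slc7a11 (0.723), and Ai-α4KO iWAT replicate 1 for Gpx1 (0.838).

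The genotype difference itself differed between tissues by edgeR's interaction test, as log2 fold change in BAT minus iWAT, for Mgst3 (1.78), Nqo1 (1.52), Hmox1 (1.66), Prdx5 (-0.89) and Sod2 (-0.997).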

How the results depend on the processing

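The median log2 fold change of the transferases in iWAT was -0.94 and -0.96 by limma on log2(FPKM + 1) and log2(FPKM + 0.1), and -1.29 without the 2 Control iWAT libraries with B cell markers, where 7 members rose and 17 fell. In BAT it was -0.36 with library totals and by both limma fits, and -0.78 with the muscle marker score as a covariate. The NRF2-linked median in BAT was 1.76 with at least 10 counts in every library. Members lower in iWAT numbered 9 when Gsta1 with Gsta2, the mu class, the pi class and the theta class were each summed before the fit, which leaves fewer rows. Members lower in BAT numbered 5, and members higher in Control BAT than Control iWAT 1, with library totals and by both limma fits. With library totals Gstm1 and Gstm5 in iWAT, and Gstm7, Gsto1, Gstt1, Prdx5 and Sod1 in BAT, were under 2-fold, as they were by both limma fits, where Gstt1 in iWAT and, with 1 added, Gstm4 in iWAT (-0.95) were under it too. Gclm (0.91), Txnrd1 (0.997) and Gsr (0.96) in iWAT were under 2-fold with upper-quartile scaling, and Gclm also by DESeq2 (0.97) and with the replicate block (0.99). Mt2 in iWAT passed by DESeq2 (1.05), Nfe2l2 in BAT by limma with 0.1 added (1.01), and Txnrd1 in BAT in 5 of these settings (1.01 to 1.24). The cause of these moves was not tested. Over all genes, 1559 were lower in iWAT against 779 by limma on log2(FPKM + 1). In BAT 1910 were lower against 807 and 1205 by the limma fits and 1265 with library totals, and 2614 were higher against 1688 with the muscle score. The interaction called 496 genes higher and 244 lower, against 1263 and 380 by DESeq2.

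Leaving out 1 library at a time gave 6 to 9 members higher and 14 to 17 lower in iWAT, 11 to 12 higher and 8 to 11 lower in BAT, 2 to 3 higher and 4 to 6 lower between Control tissues, and 4 to 6 interactions. Medians ran from -1.23 to -1.02 and 1.40 to 1.66 in iWAT, and from -0.72 to -0.55 and 1.98 to 2.20 in BAT, for transferases and NRF2-linked genes. Without the members that passed the low-count filter only through the Ai-α4KO libraries they ran from -1.25 to -1.05 for transferases in iWAT, and from -0.80 to -0.66 and 1.64 to 1.84 in BAT. Signs turned for Gstp1 (-0.12 to 0.24) and Gstp2 (-0.0079 to 0.37) in iWAT and Gclc in BAT (-0.051 to 0.22).

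Replicate numbers are shared between groups, and the labels do not say whether they pair libraries. Deviations from group means in same-numbered iWAT and BAT libraries correlated by -0.081 to 0.22 in Control and -0.27 to 0.24 in Ai-α4KO. The same number was the best match for Control 1 and 5 and Ai-α4KO 2 and 3. This cannot decide whether the numbers pair libraries, and the interaction fit treated all libraries as independent. With a replicate block, 8 members rose and 15 fell in iWAT, 11 and 10 in BAT, and 5 interactions were called.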
